A study of Arabidopsis thaliana with 6 samples.

Results

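The very long protein-coding genes of Arabidopsis thaliana were followed in seedlings of the splicing mutant mdf-1 and of wild type (WT). They were the genes of the deposited table with the biotype protein_coding and an exonic length, the gene_length of the table, of 6000 bases or more. ATM, ATR, PRP8A and BRR2A and every gene whose description contains the word kinesin were left out. This left 146 of the 151 protein-coding genes of that length, among 27628 protein-coding genes and 32998 genes in all. RNA was sequenced from whole seedlings aged 12 days, grown on Murashige and Skoog plates, with 3 libraries of mdf-1 and 3 of WT, and each library came from a separate biological replicate. WT was the accession Col-0. mdf-1 carries a T-DNA within MDF in the Col-0 background, and this one allele was sequenced, so a change in these libraries is a change in one line. The series was made to compare transcript levels and alternative splicing between the genotypes.

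MDF is the plant counterpart of SART1, a protein of the U4/U6.U5 tri-snRNP, the particle that joins the spliceosome before the first step of splicing. Genes with very long messenger RNAs mostly encode very large proteins. Among these are scaffolds with many helical repeats, chromatin-remodelling ATPases, ubiquitin ligases, polymerase subunits, callose synthases and proteins that tether membranes. Most of these genes carry many introns, and many act in every cell type. Their products are thus spread over nearly all basic processes of the cell.

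Between 44738352 and 50088386 counts fell on genes in a library. MDF itself, listed under the symbol DOT2, was counted at 80.7 ± 2.14 CPM (counts relative to the size of the library, scaled by TMM; mean ± SD, n = 3) in mdf-1 and 64.8 ± 1.64 in WT, a difference of 0.32 on the log2 scale (edgeR adjusted p = 5.86e-04). The count covers the whole gene, so it does not check the insertion. Marker genes of root cells stood lower in mdf-1. The summed level of 4 root hair markers ran from 10.5 to 12.8 CPM against 35.6 to 49.8 in WT with 4 of 4 lower, that of 4 endodermis markers from 53.4 to 56.9 against 109.5 to 120.6 with 4 of 4 lower, and that of 3 root tip markers from 1.38 to 1.79 against 6.11 to 7.44 with 2 of 3 lower and WOX5 not called. Of 6 markers of dividing cells 5 were lower, with sums of 98.5 to 121.9 against 145.9 to 161.2 CPM. Of 8 leaf photosynthesis markers 2 were higher and 3 lower, and their sums overlapped (35300 to 46060 against 35380 to 39580 CPM). In whole seedlings, fewer cells of a type and less RNA per cell cannot be told apart. All these markers are short genes, with exonic lengths of 904 to 2778 bases, and their part in the results on long genes was not tested.

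Transcripts of the very long genes were lower in mdf-1 almost throughout. Of the 146 genes, 141 passed the filter on low counts. Of these, 132 (93.6%) were called lower and 3 (2.13%) higher in mdf-1 by edgeR's quasi-likelihood test at an adjusted p below 0.05, and 6 were not called. Over all 22397 genes tested, 67.4% were called, 33.9% lower and 33.5% higher. The median log2 fold change of the very long genes was -0.84 with quartiles of -1.17 and -0.56, whereas that of all tested genes was 0.01 with quartiles of -0.51 and 0.40. The fold changes ran from -2.39 for KIP to 0.84 for AT1G72270, which was not called. In 51 of the 141 genes (36.2%) the level in mdf-1 was more than 1 lower on the log2 scale, compared with 14.1% of all tested genes.

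Every mdf-1 library lay below every WT library in 131 of the very long genes and above every WT library in 4. This complete separation was found in 37.0% of all tested genes for lower and in 36.3% for higher levels. Within single libraries, the median log2 ratio of the very long genes to the WT mean was -0.89, -0.83 and -0.83 for mdf-1 replicates 1 to 3. For the WT replicates it was -0.01, 0.02 and -0.01. The libraries within a genotype differed from each other far less than the genotypes did. The very long genes together took 0.754%, 0.773% and 0.799% of all counts in mdf-1 and 1.52%, 1.54% and 1.52% in WT. The mean share was 0.775% ± 0.0228 for mdf-1 and 1.53% ± 0.00619 for WT (SD over 3 libraries each), a ratio of WT to mdf-1 of 1.97. The groups did not overlap, and the exact two-sided permutation test gave p = 0.1, the smallest value that 3 against 3 libraries allow.

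**Figure D1:**
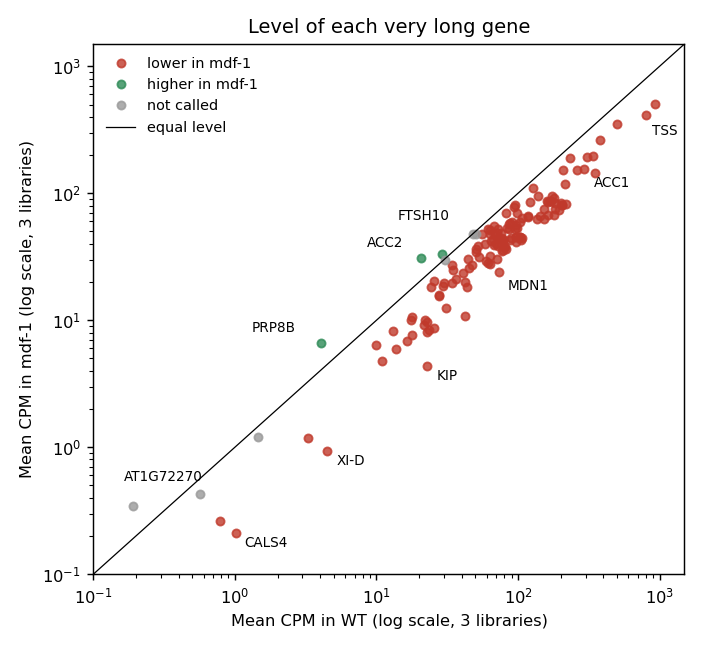
Mean CPM of each of the 141 tested very long genes in WT (x axis) and mdf-1 (y axis), both on log scales and each over 3 libraries, coloured by call. Nearly all points lie below the line of equal level, over the whole range of levels, and ACC2 and PRP8B stand above it.

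The lower levels were found at all levels of expression. Among the 70 genes above the median WT level of 73.1 CPM, 70 were called lower, with a median log2 fold change of -0.89. Among the 71 at or below it, 62 were lower and 3 higher, with a median of -0.78. Per length, the most abundant was TSS, a large repeat-domain protein, at 131.3 FPKM in WT and 67.0 in mdf-1 (means of the authors' values over 3 libraries). GLT1, the NADH-dependent glutamate synthase that assimilates ammonium, followed at 122.2 and 66.1 FPKM. AT1G01320, a tetratricopeptide repeat protein, had 82.4 and 57.3 FPKM, TOC159, the receptor for precursor proteins at the chloroplast envelope, 56.1 and 39.0, and ABCC1, a vacuolar ABC transporter, 50.5 and 31.8. All 5 were called lower in mdf-1, by log2 fold changes between -0.97 and -0.52.

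The median log2 fold change of protein-coding genes fell with exonic length. In protein-coding genes shorter than 1000 bases the median log2 fold change was 0.20, with 25.9% called lower and 42.2% higher. In bands of 1000 bases, the median was 0.12 for genes from 1000 bases, -0.07 from 2000, -0.26 from 3000, -0.44 from 4000 and -0.54 from 5000 bases up to the limit of 6000. Over these bands the share of lower calls went from 27.6% to 79.0% and that of higher calls from 40.5% to 8.38%. Within the very long genes the trend went on: the median was -0.77 in the band from 6000 bases (73 of 79 lower), -0.88 in that from 7000 bases (26 of 29 lower) and -1.13 at 8000 bases or more, where 33 of 33 genes were lower. From each band to the next the median fell by between 0.08 and 0.24. Across the limit of 6000 bases it fell by 0.24, one of the 2 largest falls. The share of lower calls went from 79.0% to 92.4% and that of higher calls from 8.38% to 1.27%. RNA integrity was measured for the study, but its values are not given in the sources used here. Its part in this trend, and in the values of the single genes below, was not tested.

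**Figure D2:**
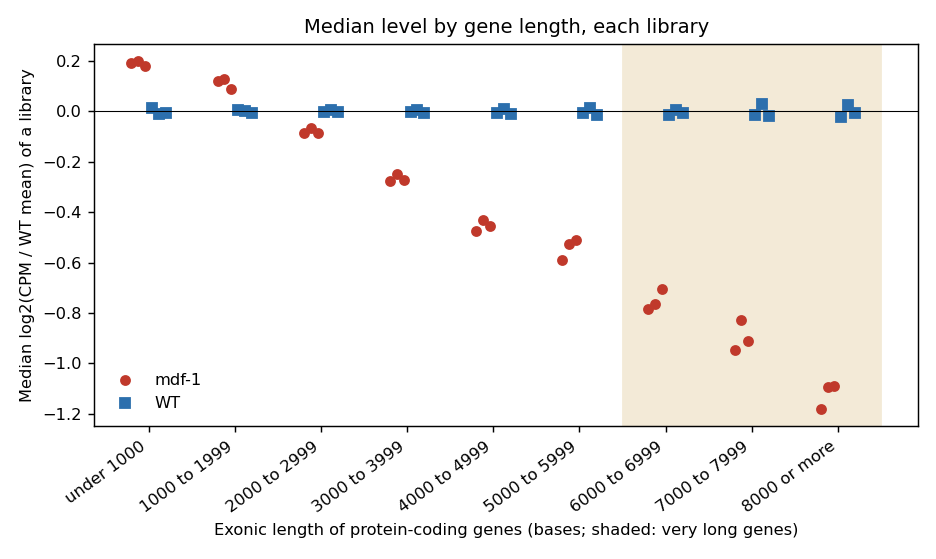
Median log2 ratio of a library to the WT mean (y axis) over the tested protein-coding genes of each band of exonic length (x axis, bases), one point for each of the 6 libraries. In the shaded bands of very long genes the mdf-1 libraries lie lowest in the band of 8000 bases or more, while the WT libraries stay near 0 in every band.

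The genes nearest to the limit differed widely on both sides. Just inside it lay SECA2 (6019 bases), a subunit of a protein translocase, with a log2 fold change of -0.31, ABCC2 (6023 bases), a vacuolar ABC transporter, with -1.41, and AT5G51200, the nuclear pore scaffold NUP205 (6027 bases), with -1.31. Just outside it lay FAB1C, a phosphoinositide kinase, with -0.75, AT5G55820 (5987 bases), a protein with an inner centromere domain, with -1.84, and AT3G26440 (5981 bases), with 0.43, which was not called (edgeR adjusted p = 0.131).

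Across the 141 genes Spearman's rho of the log2 fold change was -0.27 with exonic length, -0.35 with the genomic span, -0.38 with the longest annotated coding sequence and -0.24 with the number of introns, and -0.03 with exonic GC content. These values are across genes, which are not independent replicates and share the same 6 libraries. Over all tested protein-coding genes rho was -0.20 with exonic length, -0.16 with the genomic span and -0.23 with the longest coding sequence. It was -0.05 with the number of introns and with exonic GC content. The introns of a gene are here the distinct introns of all its annotated transcripts, so a gene with more annotated variants can count more. The 5 tested genes with 5 introns or fewer were all called lower, with a median of -0.46. Of 33 genes with 6 to 15 introns 27 were lower (median -0.78), of 56 with 16 to 30 introns 55 (median -0.79), and of 47 with 31 or more 45 (median -1.03). Shorter protein-coding genes, from 3000 bases up to the limit, over the same intron classes, had medians of -0.25, -0.28, -0.44 and -0.65. In each intron class the median of the very long genes was the lower one. The classes of the shorter genes had median exonic lengths of 3430, 3562.5, 3744 and 4714.5 bases, so intron number was not separated from length.

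**Figure D3:**
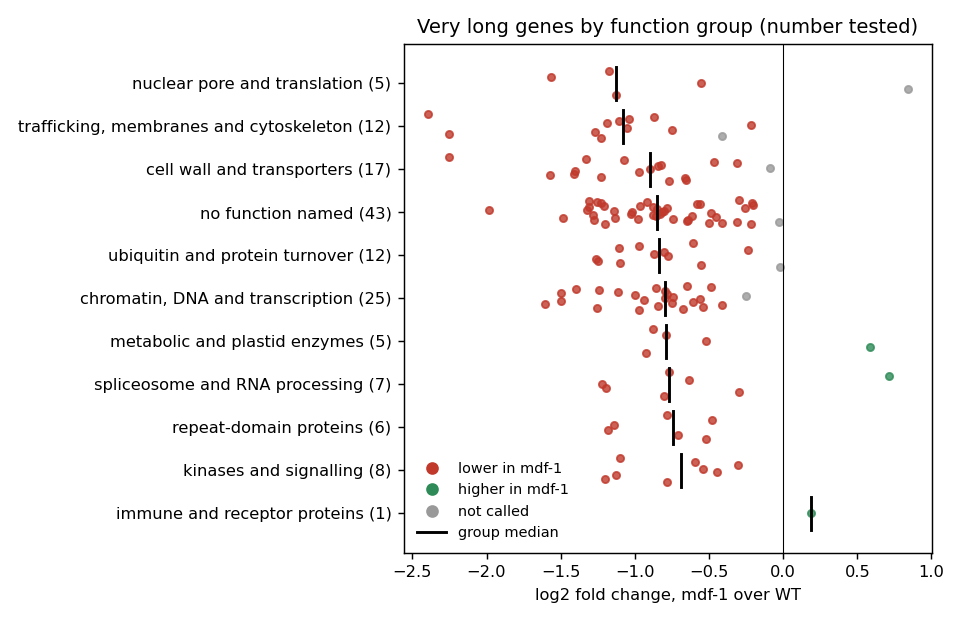
Log2 fold change of mdf-1 over WT (x axis) of every tested very long gene, in rows by the words of its description. The number tested is in brackets and the group median is a black bar. The row of no function named holds the genes whose descriptions matched no word of the other rows. Medians lie below 0 in every row with more than 1 gene, and the higher calls are single genes in 3 rows.

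When the genes were sorted by the words of their descriptions into 11 groups, 10 held more lower than higher calls, and the group left over, immune and receptor proteins, held 1 gene. Medians of the groups with more than 1 gene lay between -1.13 for nuclear pore and translation and -0.69 for kinases and signalling. In the group of chromatin, DNA and transcription 24 of 25 tested genes were lower and 0 higher, with a median of -0.80. Over all 141 very long genes tested 93.6% were lower, with a median of -0.84, and over all genes tested 33.9% were lower. The counts of groups and families here and below are to be read beside these shares, and no group was tested against them.

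Both largest subunits of nuclear RNA polymerases among the very long genes were strongly lower. NRPB1 encodes the largest subunit of RNA polymerase II, which makes all messenger RNA. It was counted at 69.3, 75.2 and 78.4 CPM in mdf-1 and 193, 200 and 193 CPM in WT. The WT libraries lay far above the mdf-1 libraries, with a log2 fold change of -1.40 ± 0.06 (SE; edgeR adjusted p = 2.07e-06). NRPE1, the largest subunit of the plant polymerase V that guides DNA methylation, had 7.48, 7.37 and 9.24 CPM in mdf-1 and 23.6, 21.8 and 22.6 CPM in WT. It fell by 1.50 on the log2 scale (edgeR adjusted p = 8.47e-06). The kinase-module subunits of Mediator, MED12 and MED13 (listed as GCT), fell by 1.00 and 0.41, and TAF1, a scaffold of the general factor TFIID, fell by 0.84.

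All 6 chromatin ATPases of the Snf2 type were lower, with a median log2 fold change of -0.89. SYD, an ATPase of SWI/SNF complexes, had 72.8, 73.0 and 78.0 CPM in mdf-1 and 182, 184 and 179 CPM in WT, with a log2 fold change of -1.28 ± 0.05 (SE; edgeR adjusted p = 1.73e-06). Its paralogue BRM fell by 0.93, the CHD-type remodeller CHR4 by 1.26 and CHR5 by 0.61, and PIE1, the ATPase that deposits the histone variant H2A.Z, by 0.56. The groups of libraries did not overlap for any of the 6. All 6 histone modifiers were lower as well. ATXR3, the main methyltransferase for trimethylation of lysine 4 of histone H3, fell by 1.11, the acetyltransferases HAC1 and HAC12 by 0.75 and 0.54, and the demethylase LDL3 by 0.80. DME, a DNA glycosylase that removes methylated cytosine, fell by 0.86, and MOM, a silencing factor of heterochromatin, by 0.67.

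EAF1A and EAF1B encode near-identical subunits of the NuA4 acetyltransferase complex and lie next to each other on chromosome 3. The best single alignment block of their longest coding sequences spanned 3514 positions with 99.5% identity. Over their exons 6740 bases aligned with 99.3% identity, which is 95.4% of the exonic length of EAF1A and 98.9% of that of EAF1B. The following stretches of 120 coding bases (EAF1A at chr3:9093049-9093168, EAF1B at chr3:9081790-9081909, both on the minus strand, TAIR10.1 sequence from RefSeq, written 5′ to 3′) are shown because they differ at 1 position, given in capitals, so that a read from such a stretch may fit both genes.
EAF1A: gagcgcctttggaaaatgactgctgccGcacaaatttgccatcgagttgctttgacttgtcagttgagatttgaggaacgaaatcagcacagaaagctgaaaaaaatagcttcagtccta
EAF1B: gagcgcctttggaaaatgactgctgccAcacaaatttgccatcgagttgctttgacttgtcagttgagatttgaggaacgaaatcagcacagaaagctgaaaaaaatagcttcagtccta
Their levels were alike, at 10.1, 10.7 and 11.1 CPM for EAF1A and 9.0, 11.2 and 9.89 CPM for EAF1B in mdf-1. In WT they stood at 17.3, 18.1 and 18.0 CPM and at 18.5, 17.0 and 17.0 CPM. The log2 fold changes were -0.75 and -0.80. With so few differing positions, the values of the pair are uncertain for either gene alone.

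Of the 6 genes of DNA replication, repair and chromosome segregation, 5 were tested and all 5 were lower, with a median of -1.21. POL2A, the catalytic subunit of the replicative DNA polymerase epsilon, had 16.1, 18.8 and 20.2 CPM in mdf-1 and 44.8, 44.1 and 42.6 CPM in WT (log2 fold change -1.26 ± 0.08, SE; edgeR adjusted p = 9.82e-06). Every WT library was far above every mdf-1 library. TEB, the polymerase theta of end joining, fell by 1.24, REV3, the catalytic subunit of the translesion polymerase zeta, by 1.13, and ESP, the separase that opens cohesin rings, by 1.21. EMB2773, the plant counterpart of the cohesin loader SCC2, fell by 0.48. Markers of dividing cells were lower in the same libraries (sums of 98.5 to 121.9 CPM in mdf-1 and 145.9 to 161.2 in WT), and their part in these values was not tested.

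Of 7 tested genes of the spliceosome and RNA processing 6 were lower and 1 was higher. DCL1, the dicer that makes microRNAs, fell by 0.80, the RNA helicase BRR2C by 0.77, RRP5, a large factor of ribosomal RNA processing, by 1.19, and AT4G17610, a methyltransferase family protein, by 1.22. BRR2B, a second copy of the U5 helicase BRR2, had 47.9, 52.0 and 55.5 CPM in mdf-1 and 60.8, 64.3 and 66.4 CPM in WT. Its libraries did not overlap, and the log2 fold change was -0.30 ± 0.07 (SE; edgeR adjusted p = 0.00414). AT4G38780, also known as PRP8B, is the second copy of PRP8, the U5 protein at the heart of the spliceosome. It went the other way, with 6.26, 6.72 and 6.83 CPM in mdf-1 and 4.57, 3.85 and 3.66 CPM in WT (log2 fold change 0.72 ± 0.12, SE; edgeR adjusted p = 0.00100). All mdf-1 libraries lay above all WT libraries.

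PRP8B and the main copy PRP8A aligned over 6769 positions of their coding sequences with 89.0% identity. The stretches below show how reads of the weakly expressed PRP8B can be told from those of PRP8A. They are 120 coding bases of PRP8B (chr4:18110072-18110191, minus strand) and PRP8A (chr1:30118894-30119013, plus strand) in TAIR10.1 from RefSeq, 5′ to 3′, with the 13 differing positions in capitals.
PRP8B: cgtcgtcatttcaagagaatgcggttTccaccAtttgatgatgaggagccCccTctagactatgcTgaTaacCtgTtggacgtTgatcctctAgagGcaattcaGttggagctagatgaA
PRP8A: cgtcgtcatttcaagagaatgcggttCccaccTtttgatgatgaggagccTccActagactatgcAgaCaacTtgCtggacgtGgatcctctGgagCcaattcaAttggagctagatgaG
The differing positions are spread along the stretch. How the counting treated reads that fit both genes is not given in the sources used here.

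MDN1 is the longest of all, with 16614 exonic bases and 75 introns on the minus strand of chromosome 1 (chr1:25069428-25095638, TAIR10). It encodes midasin, a giant ATPase that strips assembly factors from the large ribosomal subunit before export. MDN1 had 22.5, 23.8 and 25.6 CPM in mdf-1 and 72.5, 73.4 and 73.6 CPM in WT. Its level in WT was 3.05 times that in mdf-1 (log2 fold change -1.61 ± 0.06, SE; edgeR adjusted p = 1.46e-06). AT4G27010, whose description names a ribosome 60S biogenesis domain, fell by 1.56, and 4 of the 5 genes of ribosome biogenesis were lower. The fifth, AT1G72270, is the gene named in the description as the best match of AT4G27010. It had 0.258, 0.431 and 0.340 CPM in mdf-1 and 0.141, 0.242 and 0.189 CPM in WT, which did not overlap but lay at a few counts a library, and it was not called (log2 fold change 0.84 ± 0.38, SE; edgeR adjusted p = 0.0811).

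The other genes among the 5 longest were lower too, by different amounts. BIG, a calossin-like protein needed for auxin transport, has 15766 exonic bases but only 17 introns. It had 156, 155 and 150 CPM in mdf-1 and 202, 219 and 206 CPM in WT, with a log2 fold change of -0.44 ± 0.05 (SE; edgeR adjusted p = 1.76e-04). Its change was smaller than that of the other 4. AT5G23110, a RING-type zinc finger protein of 14494 bases with 12 introns, fell by 1.11, and AT4G17140 and AT1G48090, VPS13-like proteins of 13366 and 13296 bases, fell by 1.04 and 1.28.

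All 4 nuclear pore proteins were lower. NUP205 (AT5G51200), part of the inner ring, had 39.9, 42.0 and 45.9 CPM in mdf-1 and 101, 107 and 109 CPM in WT (log2 fold change -1.31 ± 0.07, SE; edgeR adjusted p = 3.10e-06). The membrane nucleoporin GP210, listed as GB210, fell by 1.17, and NUA, a filament of the nuclear basket, by 0.55. Downstream of the pore, ILA, the plant GCN1 that senses stalled translation, fell by 1.13, and AT1G02080, the NOT1 scaffold of the CCR4-NOT deadenylase, by 0.97. THO2, a subunit of the THO complex for mRNA export, fell by 0.65, and EMB2016, a virilizer-like protein of the machinery that methylates adenosines in mRNA, by 1.14.

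Among 12 genes of ubiquitin and protein turnover 11 were lower and 0 higher. UPL1 and UPL2 are HECT ubiquitin ligases with 94.1% identity over 11381 exonic bases, so some of their reads may be shared. UPL2 had 141, 148 and 146 CPM in mdf-1 and 336, 360 and 347 CPM in WT, and UPL1 had 81.8, 84.6 and 85.8 CPM and 196, 202 and 201 CPM. Both were far lower in every mdf-1 library than in any WT library, with log2 fold changes of -1.27 and -1.25. UPL3, another HECT ligase, fell by 0.78, PRT6, which reads N-terminal arginine as a degradation signal, by 0.87, and AT5G58410, a plant listerin, by 0.61. DEK1, the membrane calpain that specifies the epidermis, was lower, with a WT level 2.15 times that of mdf-1.

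All 8 kinases and signalling proteins were lower. TOR, the kinase that couples growth to nutrients, had 42.8, 45.1 and 47.2 CPM in mdf-1 and 104, 103 and 104 CPM in WT (log2 fold change -1.20 ± 0.05, SE; edgeR adjusted p = 2.16e-06). The WT libraries agree closely and lie far above those of mdf-1. The TRRAP-like scaffolds TRA1A (AT2G17930) and TRA1B (AT4G36080) were lower, with WT levels 2.18 and 2.15 times those of mdf-1, and aligned with 87.4% identity over 11565 bases. The lipid kinases fell less. They are also shorter, with 6454 to 7097 exonic bases compared with 8200 to 12133 for TOR, TRA1A and TRA1B. The part of length in this difference was not tested. PI4KA1, which makes phosphatidylinositol 4-phosphate, fell by 0.78, and FAB1A and FAB1B, which make phosphatidylinositol 3,5-bisphosphate, by 0.59 and 0.31.

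Membrane trafficking and the cytoskeleton held the largest differences. KIP, or KINKY POLLEN, is a VPS13-like protein needed for tip growth of root hairs and pollen tubes. It had 4.92, 4.81 and 3.36 CPM in mdf-1 and 25.8, 20.2 and 22.8 CPM in WT. The lowest WT library was several times the highest mdf-1 library, and the log2 fold change was -2.39 ± 0.16 (SE; edgeR adjusted p = 1.27e-05). Its relative SAB, which acts in cell expansion, had 51.1, 53.4 and 51.6 CPM in mdf-1 and 84.5, 90.3 and 85.8 CPM in WT, and fell by 0.74. The summed root hair markers were 10.5 to 12.8 CPM in mdf-1 and 35.6 to 49.8 CPM in WT, and their part in the value of KIP was not tested.

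XI-D, a myosin, had 0.727, 0.837 and 1.25 CPM in mdf-1 and 5.25, 3.81 and 4.41 CPM in WT, with a log2 fold change of -2.25 ± 0.23 (SE; edgeR adjusted p = 6.67e-05). KIN12D, a phragmoplast-orienting kinesin whose description lacks that word, had 9.59, 10.1 and 12.6 CPM in mdf-1 and 39.7, 42.2 and 45.5 CPM in WT. It fell by 1.98 (SE 0.11; edgeR adjusted p = 5.01e-06), and no mdf-1 library came near WT. CSI1, which links cellulose synthase complexes to microtubules, fell by 1.41 and CSI3 by 1.23. MOR1, a microtubule polymerase, fell by 1.03, SPK1, an exchange factor for ROP GTPases, by 1.11, and NET1D, an actin-binding membrane protein, by 0.21. The call of NET1D was lost without mdf-1 replicate 2 or without WT replicate 1 or 2 (edgeR adjusted p of up to 0.071). All 9 microtubule and actin proteins were lower, as were the 3 tested BEACH-domain proteins SPI, BCHC2 and AT4G02660, which fell by 1.23, 1.27 and 1.19. The 7 VPS13-like and related proteins were all lower too, with a median of -1.04.

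**Figure D4:**
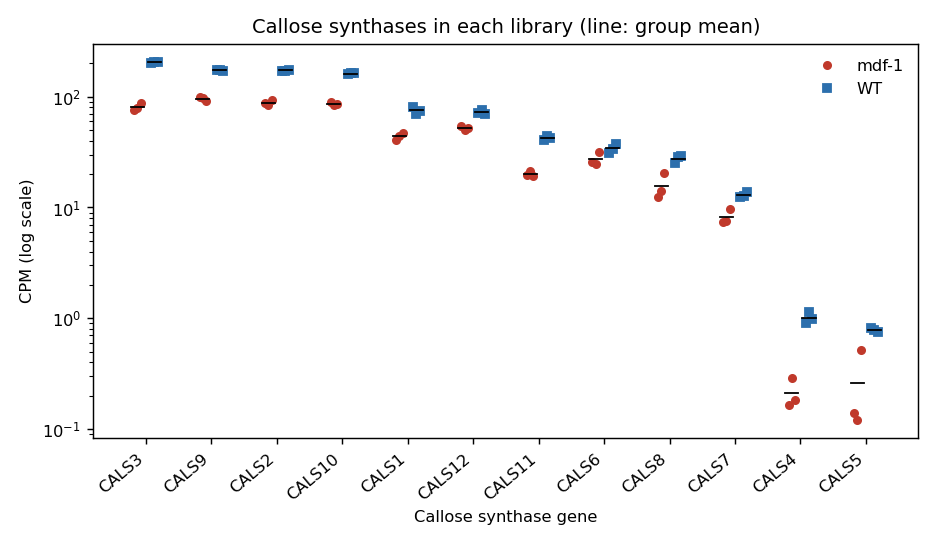
CPM (y axis, log scale) of the 12 callose synthase genes (x axis) in each of the 3 mdf-1 and 3 WT libraries, with a black line at each group mean. The mdf-1 means lie below the WT means for all 12, and only in CALS6 does an mdf-1 library reach into the range of WT.

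The 12 callose synthases, which make the glucan of cell plates, plasmodesmata, sieve plates and wound plugs, were all called lower, with a median of -0.87. CALS3, which sets the opening of plasmodesmata, was the most abundant in WT. It had 76.3, 79.1 and 88.0 CPM in mdf-1 and 202, 204 and 206 CPM in WT (log2 fold change -1.33 ± 0.06, SE; edgeR adjusted p = 2.73e-06). CALS10 and CALS9 (listed as ATGSL10), which act in dividing cells and developing pollen, fell by 0.90 and 0.85. CALS7 of the phloem fell by 0.66 and CALS12, which lays down callose at wounds and infection sites, by 0.46. CALS6 changed least, with 25.7, 24.8 and 31.7 CPM in mdf-1 and 31.2, 33.6 and 37.4 CPM in WT. Its groups overlapped by 1 library, and the log2 fold change was -0.31 ± 0.11 (SE; edgeR adjusted p = 0.0312). That call was lost without mdf-1 replicate 1 or 2 or without WT replicate 2 or 3 (edgeR adjusted p of up to 0.121).

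The 2 callose synthases with the largest fold changes were barely expressed. CALS4 had 0.164, 0.287 and 0.181 CPM in mdf-1 and 0.905, 1.15 and 0.980 CPM in WT, with a log2 fold change of -2.25 ± 0.30 (SE; edgeR adjusted p = 2.80e-04). CALS5, the synthase of the pollen wall, had 0.141, 0.120 and 0.522 CPM in mdf-1 and 0.825, 0.786 and 0.754 CPM in WT (log2 fold change -1.57 ± 0.48, SE; edgeR adjusted p = 0.0194). One mdf-1 library stood well above the other two. The call of CALS5 was lost without mdf-1 replicate 1, without mdf-1 replicate 2 or without WT replicate 1, with an edgeR adjusted p of up to 0.0643 and log2 fold changes of -2.58 to -1.23 over the libraries left out.

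Of the 3 ABC transporters, ABCC2 and ABCC1, which carry conjugates into the vacuole, fell by 1.41 and 0.66. ABCC2 had 81.1, 77.4 and 86.8 CPM in mdf-1 and 218, 212 and 220 CPM in WT. ABCA1 had 50.0, 49.4 and 44.1 CPM in mdf-1 and 49.8, 56.7 and 46.0 CPM in WT, which overlapped, and it was not called (log2 fold change -0.09, edgeR adjusted p = 0.393). With library totals in place of TMM it was called lower, at -0.23.

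The acetyl-CoA carboxylases ACC1 and ACC2 changed in opposite directions. Both are multidomain enzymes that make malonyl-CoA, ACC1 for the elongation of fatty acids in the cytosol and ACC2 in the plastid. They lie close together on the plus strand of chromosome 1, and their coding sequences aligned over 6763 positions with 90.2% identity. The 120 coding bases of ACC1 (chr1:13534265-13534384) and ACC2 (chr1:13546625-13546744) below (TAIR10.1 from RefSeq, 5′ to 3′) carry 12 differing positions, in capitals, and are shown because these differences are what separates the reads of a pair with opposite changes.
ACC1: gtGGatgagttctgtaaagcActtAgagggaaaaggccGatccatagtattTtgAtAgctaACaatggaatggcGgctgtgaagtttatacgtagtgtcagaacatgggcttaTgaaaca
ACC2: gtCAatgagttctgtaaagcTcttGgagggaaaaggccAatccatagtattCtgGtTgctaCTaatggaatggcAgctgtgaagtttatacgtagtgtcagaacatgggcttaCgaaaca
ACC1 had 142, 166 and 156 CPM in mdf-1 and 296, 299 and 288 CPM in WT. It was lower in every mdf-1 library, with a log2 fold change of -0.93 ± 0.07 (SE; edgeR adjusted p = 1.47e-05). ACC2 had 30.7, 30.8 and 31.0 CPM in mdf-1 and 21.3, 21.5 and 18.9 CPM in WT. It was higher in every mdf-1 library, with a log2 fold change of 0.58 ± 0.06 (SE; edgeR adjusted p = 1.00e-04). In WT ACC1 stood at 37.8 FPKM and ACC2 at 2.61 FPKM, and in mdf-1 at 19.8 and 3.90 FPKM.

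The third gene called higher was AT4G19520, a probable disease resistance protein. Sorting by the words of the descriptions placed only this gene in the immune group, so the group does not show how immune genes changed. AT4G19520 was counted as follows. It had 32.7, 31.6 and 34.6 CPM in mdf-1 and 28.4, 27.4 and 30.9 CPM in WT, a small difference without overlap (log2 fold change 0.19 ± 0.06, SE; edgeR adjusted p = 0.0296). With ACC2 and PRP8B it made up all higher calls, but unlike theirs its call was lost in 8 of 15 other fits. These were DESeq2 (adjusted p = 0.0534), upper-quartile scaling, library totals in place of TMM (log2 fold change 0.05), the filter of 10 counts in every library, and the edgeR fits without mdf-1 replicate 1 or 3 or without WT replicate 1 or 2, with adjusted p of up to 0.601.

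**Figure D5:**
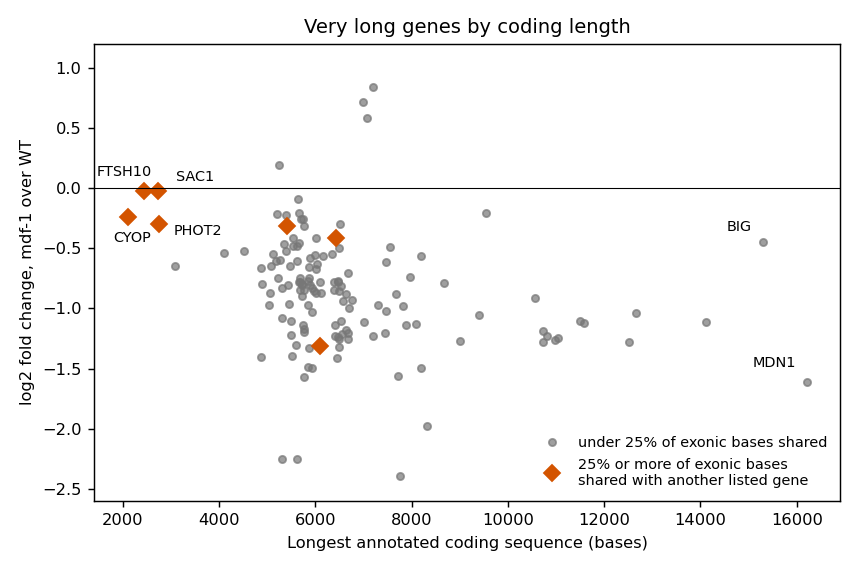
Log2 fold change (y axis) of the tested very long genes against their longest annotated coding sequence (x axis, bases), with orange diamonds for the 7 genes that share 25% or more of their exonic bases with another listed gene. FTSH10, SAC1, CYOP and PHOT2 combine a coding sequence under 4500 bases with log2 fold changes between -0.30 and -0.02. AtRLP9 and M3KE1, not labelled, also have coding sequences under 4500 bases and lie at -0.64 and -0.54.

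FTSH10, SAC1, CYOP and PHOT2 changed little, and their annotated coding sequences are much shorter than their exonic lengths. For FTSH10, a protease of the mitochondrial inner membrane, the longest annotated transcript holds all 6715 exonic bases and the longest coding sequence 2442 of them. Its gene model (chr1:2304435-2312399, plus strand, TAIR10) runs on across AT1G07520 on the opposite strand, with which it shares 2852 bases. FTSH10 had 49.2, 47.0 and 45.9 CPM in mdf-1 and 48.5, 47.0 and 48.7 CPM in WT and did not separate the genotypes (log2 fold change -0.02 ± 0.05, SE; edgeR adjusted p = 0.727). SAC1, a phosphoinositide phosphatase, shares 49.9% of its 6664 exonic bases with AT1G22610 on the other strand and has a longest coding sequence of 2739 bases. It had 30.4, 29.4 and 29.4 CPM in mdf-1 and 31.3, 29.1 and 30.4 CPM in WT, which overlapped (log2 fold change -0.03; edgeR adjusted p = 0.679). With library totals in place of TMM both genes were called lower, each by a log2 fold change of -0.17.

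CYOP, an oligopeptidase, and PHOT2, a blue-light receptor, also share exonic bases with a gene on the other strand. In PHOT2 these lie after the coding sequence, as in FTSH10, and in CYOP before it. The longest coding sequences of CYOP and PHOT2 are 2106 and 2748 bases, and the genes fell by 0.24 and 0.30. The call of PHOT2 was lost without mdf-1 replicate 1 or 2 or without WT replicate 2 or 3 (edgeR adjusted p of up to 0.0838). In all, 6 tested genes had a longest coding sequence under 4500 bases, and 4 of them were lower with a median of -0.27. Among the 6, AtRLP9 and M3KE1, with coding sequences of 3090 and 4107 bases, fell more, by 0.64 and 0.54. The longest transcript of AtRLP9 holds only 3294 of its 6310 exonic bases. Of the 135 tested genes with a longest coding sequence of 4500 bases or more 128 were lower, with a median of -0.86. Of the 7 genes that shared 25% or more of their exonic bases with another listed gene 4 were lower, with a median of -0.30, and of the other 134 128 were lower, with a median of -0.85. WAVE5, which shares 35.0% of its bases but has a coding sequence of 6087, fell by 1.31. These divisions were chosen after the values were seen and were not tested. How the counting treated reads in shared exons is not given in the sources used here.

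The remaining uncalled genes were weakly expressed. AT1G44120, a protein with armadillo repeats, had a mean of 0.427 CPM in mdf-1 and 0.569 in WT (log2 fold change -0.41; edgeR adjusted p = 0.221), and 88.2% of its exonic bases lie under a long non-coding RNA on the other strand. AT3G48770, described as an ATP/DNA binding protein, had 1.21 and 1.45 CPM (log2 fold change -0.25; edgeR adjusted p = 0.434). The standard errors were 0.28 and 0.27 on the log2 scale, and without WT replicate 1 the log2 fold change of AT3G48770 was 0.02. The 5 genes that did not pass the filter had 10 counts or fewer in every library. They were POL2B, a second copy of POL2A with 89.5% identity over 6412 bases, the BEACH-domain gene AT3G60920, the putative transmembrane protein AT3G28770 and both chloroplast copies of ycf2-B, one with 0 counts in every library and the other with 1 count in a single library. A count of 0 allows up to 3 counts, between 5.99e-06% and 6.71e-06% of a library, which covers counting error only. Both copies of ycf2-B have 6885 bases, and how the counting treated reads that fit both is not given. Their counts therefore do not show whether ycf2-B was expressed.

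The group of genes whose descriptions held no word of the other groups had 43 tested genes. Of these, 42 were lower and 0 higher, with a median of -0.85. Their range reached from KIN12D to SAC1. This group is what the sorting left over, and some of its genes, such as SYD, REV3 and THO2, are counted in families above. The 6 repeat-domain proteins were all lower, with AT3G06530, an ARM repeat protein, at 32.6, 37.0 and 38.9 CPM in mdf-1 and 81.1, 87.2 and 78.0 CPM in WT (log2 fold change -1.18 ± 0.08, SE; edgeR adjusted p = 8.42e-06). Its lowest WT library lay far above its highest mdf-1 library.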

How the data were processed

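The titles of the samples gave the groups (3 mdf-1, 3 WT). The authors aligned the reads to TAIR10 with HISAT2, and featureCounts and fastp are named in the submitters' processing notes. Strand and shared-read settings of the counting are not given in the sources used here. The deposited table gives raw counts of each gene in each library, which were the values tested. The FPKM values deposited by the authors, counts divided by exonic length and scaled library size, were used only for levels per length. The authors' columns of their own comparison and of normalized counts were not used.

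Counts were fitted over the whole table with edgeR 4.0.16 in R 4.3.3 (filterByExpr, TMM, glmQLFit robust, glmQLFTest, Benjamini-Hochberg adjustment). CPM values are scaled by TMM. The standard errors (SE) were derived from the test, as the absolute log2 fold change divided by the square root of its F statistic. The p-values set the difference between genotypes against the spread between these 3 biological replicates per genotype, which edgeR estimates with information from all genes. Library totals run from 44738352 to 50088386. The procedure was run on simulated counts, where 98 of 100 genes changed by 1 and 100 of 100 changed by 2 on the log2 scale were called. There were 9 false calls among 22022 unchanged genes (22222 tested). In the simulation few genes changed, in random directions and without regard to length, and all genes had the same dispersion. In the real libraries 67.4% of tested genes were called, so the simulation does not check the scaling or the error rate there.

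Annotation came from the TAIR10.1 RefSeq files, in which 144 of the 146 genes matched with the same start and end. For 143 the length in the table equals the union of exons. Similar genes were found with BLAST+ 2.17.0 (megablast, at least 85% identity over 1000 bases). The named genes were known long genes, the largest changes of each function group with 100 or more counts on average and separate groups, the 5 longest, the 3 on each side of the limit and the 5 with the highest level per length. Function groups followed words of the deposited descriptions, and the smaller families were sorted from textbook knowledge. Further members of families and the genes that were not called were named after their values were seen. The genes and lists were chosen with earlier results of these data known. Alternatives were DESeq2 1.42.0, other scalings and filters, a replicate block, each library left out, a fit of protein-coding genes only, an adjusted p below 0.01 and other length limits, and, added after seeing the data, sets without similar, overlapping or exon-sharing genes. Splicing was not analysed here.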

Additional observations from a re-analysis of the deposited data

How the results depend on the processing

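The 132 lower calls stayed between 126 and 135 under DESeq2, the other scalings and filters and an adjusted p below 0.01, and were 127 to 132 when a library was left out; the higher calls stayed at 2 or 3, the gene lost being AT4G19520. DESeq2 called 132 lower and 2 higher. The median log2 fold change, -0.84, was -0.89 with upper-quartile scaling and -0.99 with total counts, which moved the median of all genes by -0.14, and -0.81 to -0.86 with each library left out. Other length limits changed the set itself. At 5000 bases or more, 264 of 308 genes were lower and 17 higher with a median of -0.68, and at 7000 bases or more 59 of 62 were lower with a median of -1.05. Without the genes that overlap another listed gene 81 of 85 were lower, because fewer genes were tested. The ratio of the share of counts (mdf-1 to WT) was 0.508, between 0.474 and 0.583 over the alternatives. Over 15 other fits, 130 of the 141 tested genes kept their direction and call in every fit that tested them. AT4G19520 lost its higher call in 8 fits. PHOT2, CALS6, NET1D, CALS5, DCAF1 and AtRLP9 lost their lower calls when single libraries were left out, ABCA1, SAC1 and FTSH10 gained one with total counts, and AT3G48770, which was not called, ran from -0.46 to 0.02 with each library left out.

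Deviations of same-numbered libraries from their genotype means had correlations of 0.04, 0.00 and 0.08, and those of other pairs ran from -0.09 to 0.05. With 3 libraries of each genotype these values cannot tell whether the numbers pair the samples. Pairing is not given in the sources used here. With the replicate number as a block, 132 genes were lower and 3 higher, with a median of -0.85, and 14743 of all genes were called in place of 15089.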
